A study of Mus musculus with 6 samples.

Results

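The comparison set the mouse induced pluripotent stem (iPS) cell line iPS1 against the line iPS4. It used the 2 arrays labelled iPS1 and the 2 labelled iPS4, which are 4 of the 6 arrays of the series, and all 41174 gene probes, which stood for 18295 named genes. Both lines came from OG2 mouse embryonic fibroblasts (MEFs), which carry a green fluorescent protein reporter of Oct4. The fibroblasts had received a mixture of pMX retroviruses that encoded Oct4, Sox2, Klf4 and c-Myc together with 12 subunits of TFIID, which were TBP with TAF13, TAF12, TAF11, TAF10, TAF9, TAF7, TAF6, TAF5, TAF4b, TAF4 and TAF3. GFP-positive colonies were picked and expanded into lines, so iPS1 and iPS4 are 1 line each, made with the same vectors, and a difference between them is a difference between 2 lines. The label of cell type on the iPS channel reads MEF, the cell of origin. The cells grew on irradiated MEF feeders in medium with LIF. Another line of the same origin, iPS5, is given beside them where its level helps to place a value. Each array carried RNA of an iPS line in one dye and RNA of a pool of embryonic stem (ES) cells, also OG2 and also kept on feeders, in the other. One array of each line had the iPS RNA in Cy5 and the other had it in Cy3. The difference was therefore taken between arrays of the same dye orientation, in which the ES pool and the dye effect cancel. It is given throughout as log2, iPS1 minus iPS4, so a positive value means more RNA in iPS1.

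Retroviral reprogramming turns a fibroblast into a cell that renews itself and can form all tissues of the embryo. Each colony starts from its own set of viral insertions and from its own path through the loss of fibroblast genes and the start of the endogenous pluripotency network of Oct4, Sox2 and Nanog. Lines are known to differ in how fully imprinted genes keep their marks, in how near they lie to the naive or the primed form of pluripotency, and in sporadic expression of germ-line and 2-cell-stage genes. TFIID is the general transcription factor that carries the TATA-binding protein to promoters.

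The defining markers of pluripotent cells, Pou5f1 (which encodes Oct4), Sox2 and Nanog, were above background on all arrays of both lines. In the iPS channel 81.2% and 67.4% of gene probes were above the dim-control level on the iPS1 arrays, against 87.1% and 65.2% on the iPS4 arrays, with the Cy5 array given before the Cy3 array for each line. On the iPS5 arrays the shares were lower for the same dye, at 65.7% and 47.4%. The log2 ratios also spread less there, with a standard deviation of 0.208 and 0.252. It was 0.292 and 0.305 on the iPS1 arrays and 0.291 and 0.327 on the iPS4 arrays. No gene probe was saturated on an iPS1 array and 2 were on an iPS4 array. The labels do not say whether the 2 arrays of a line held separate RNA, so the p-values measure the spread between arrays, which may be technical, and with 2 arrays per line that number limits the precision.

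Of the 41174 probes, 3743 (9.09%) differed between the lines at an adjusted p under 0.05, with 2377 (5.77%) higher and 1366 (3.32%) lower in iPS1. Of these 132 (0.321%) were also beyond 2-fold, 96 (0.233%) higher and 36 (0.0874%) lower. Taking each gene by its brightest probe, 2199 of 18295 genes (12%) were called, of which 1377 (7.53%) were higher and 822 (4.49%) lower in iPS1. Most of these differences were small. Only 85 genes (0.465%) were both called and beyond 2-fold, 59 (0.322%) higher and 26 (0.142%) lower. The median difference of all genes was 0.01, and the median absolute difference was 0.08 beside a median standard error (SE) of 0.06. The probes of a gene often disagreed: of 1274 called genes with more than 1 probe, every probe was called in the same direction in 191, and a probe had the opposite sign in 501. Values below are those of the brightest probe. Among the genes named below, Fdft1, Bag3, Cenpf, Bmi1, Erap1, Parp14, Gata6, Dcn, Id2, Tet2 and Zfp809 are examples in which another probe was near 0 or opposite in sign. In these bulk samples fewer cells of a type and less RNA per cell cannot be told apart. All 2199 called genes had the same sign in both dye-matched pairs, and 13050 of all 18295 genes did. The number of calls changed with the processing: with a normexp offset of 0 in place of 50 no probe passed, although 5358 had an unadjusted p under 0.05, and with that offset and an intensity-dependent prior 2966 passed. All 85 genes beyond 2-fold kept their direction under each of these settings.

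**Figure D1:**
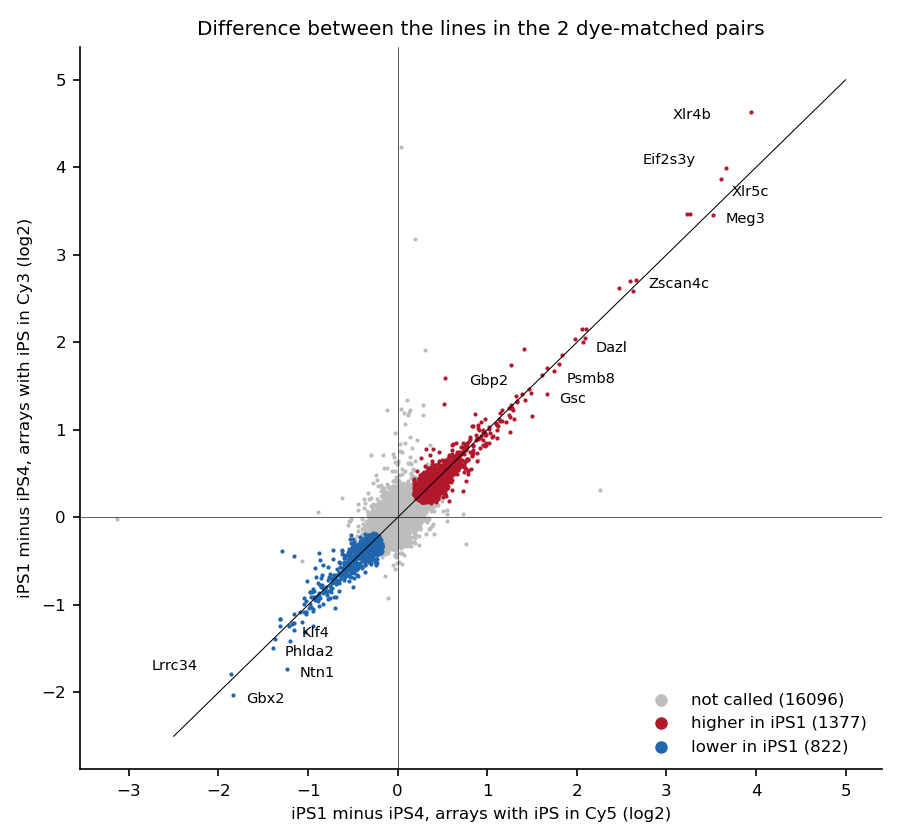
Difference between iPS1 and iPS4 (log2) for each of 18295 genes in the pair of arrays with the iPS RNA in Cy5 (horizontal axis) and in the pair with it in Cy3 (vertical axis), with called genes in red (1377 higher in iPS1) and blue (822 lower). Most called genes far from 0 lie near the line of equal values, and Xlr4b, Eif2s3y, Xlr5c and Meg3 are at the upper end while Gbx2 and Lrrc34 are at the lower end.

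The highest genes in iPS1 were those of the X-linked lymphocyte-regulated (Xlr) family, chromatin-associated proteins of germ cells and lymphocytes related to the synaptonemal complex protein Sycp3. Of 7 genes measured in a list of the family with Sycp3, 6 were higher in iPS1, none was lower, and the median difference was 3.35. Xlr4b, at X:73214321-73222453 (GRCm38.p6), stood at -1.14 and -0.70 over the ES pool on the iPS1 arrays, against -5.08 and -5.33 on the iPS4 arrays. That is a difference of 4.29 ± 0.14 (SE, adjusted p = 3.358e-05), or 19.5-fold, and its other probe differed by 0.15 and was not called. Xlr5c was at -1.45 and -1.40 in iPS1 and at -5.06 and -5.26 in iPS4. Xlr3c was at -0.97 and -0.99 in iPS1 and at -4.19 and -4.45 in iPS4, and Xlr4c at -1.11 and -0.43 in iPS1 and at -4.38 and -3.90 in iPS4. In these genes, named for their large differences, the arrays of the lines did not overlap, as in 6943 of all 18295 genes (38%). Both lines were below the ES pool, iPS4 far more so. The transcripts Xlr5e-ps and Xlr4e-ps, which the annotation names as pseudogenes, were higher in iPS1 by 2.65 ± 0.11 and 2.13 ± 0.15. Xlr4c and both pseudogenes were above background on 1 of the 2 iPS4 arrays and on both iPS1 arrays. The autosomal relative Sycp3 was higher by 0.73 ± 0.10, and Xlr itself differed by 0.22 and was not called (adjusted p = 0.0578). In iPS5 the ratios of the X-linked Xlr genes and pseudogenes above lay between those of the lines, with Xlr4b at -3.70 and -3.73. Xlr4b and Xlr3c were above background on both iPS5 arrays. Xlr5c, Xlr4c and both pseudogenes were not above background on either, so their iPS5 ratios do not show an intermediate level.

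The Xlr copies are close in sequence, so probes of different members may share signal and their differences are not independent. Whether the probes share signal was not tested, and promoters lie mostly outside the transcripts that probes read. The promoters were compared in RefSeq windows, which run from 250 bases before to 50 bases after the gene's start. Over aligned bases, with gaps left out, the window of Xlr5c was 69% identical to that of Xlr4b. The windows of Xlr4b and Xlr4c were 98.9% identical on the same measure. They are printed here 5′ to 3′ with CpG dinucleotides, the sites of DNA methylation in mammals, in capitals (GRCm38.p6, Xlr4b at X:73214083-73214382 on the plus strand, Xlr4c at X:73243081-73243380 on the minus strand).
Xlr4b: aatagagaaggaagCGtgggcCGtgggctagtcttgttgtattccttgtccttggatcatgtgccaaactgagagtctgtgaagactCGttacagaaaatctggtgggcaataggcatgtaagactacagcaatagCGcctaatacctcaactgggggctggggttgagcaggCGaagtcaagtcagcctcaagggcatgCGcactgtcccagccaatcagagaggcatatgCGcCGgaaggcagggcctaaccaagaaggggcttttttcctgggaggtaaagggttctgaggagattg
Xlr4c: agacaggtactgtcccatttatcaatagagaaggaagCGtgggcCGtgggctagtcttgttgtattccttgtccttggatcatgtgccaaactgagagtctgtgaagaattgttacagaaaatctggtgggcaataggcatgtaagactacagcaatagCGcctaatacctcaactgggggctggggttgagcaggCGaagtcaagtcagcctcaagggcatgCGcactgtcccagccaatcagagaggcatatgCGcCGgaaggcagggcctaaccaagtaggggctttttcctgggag
The Xlr4b window held 8 CpG and the Xlr4c window 7, against a median of 16 over the 14652 measured genes with a window in the table. The segment from Xlr4b to Xlr4e-ps on the X chromosome covered 1738031 bases and held 44 measured genes. Among them 8 were higher in iPS1, the 6 X-linked Xlr genes and pseudogenes with Tktl1 (0.38) and Flna (0.26). Renbp was lower (-0.26), and the other 35 genes of the segment were not called.

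Eif2s3y, the Y-linked copy of a translation initiation factor subunit, was the second highest gene. It stood at -0.59 and -0.22 over the ES pool on the iPS1 arrays, against -4.26 and -4.21 on the iPS4 arrays and -2.85 and -2.97 on those of iPS5, a difference between iPS1 and iPS4 of 3.83 ± 0.11 (adjusted p = 1.806e-05). Its probe was above background on both arrays of iPS1 and of iPS4, and on 1 of the 2 iPS5 arrays. Its normalised log2 level was 9.71 and 9.81 in iPS1, against 6.19 and 6.18 in iPS4. No other Y-linked gene measured was called by its brightest probe: Kdm5d differed by 0.01 ± 0.21, Uty by -0.05 ± 0.14, Zfy1 by -0.03 ± 0.05 and Usp9y by 0.07 ± 0.07. The Usp9y probe was above background on 1 of the 2 iPS1 arrays and on no array of iPS4 or iPS5. It was also not above background in the ES channel of the iPS1 and iPS4 arrays, so its value says little about either line. Kdm5d and Uty have close X-linked relatives that their probes may also read. Shared signal of this kind was not tested for any Y-linked probe, that of Eif2s3y included. A dimmer probe of Uty (0.50) and a dimmer probe of Zfy1 (0.32) were called higher in iPS1. Xist, the RNA that coats an inactive X chromosome, stood at 0.23 and 0.21 in iPS1 and at 0.37 and 0.41 in iPS4 and was not called (adjusted p = 0.1626).

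Imprinted genes, which are read from only the maternal or only the paternal copy, gave some of the largest values in both directions. Of 30 measured, 10 were higher and 4 lower in iPS1, with a median of 0.10. Meg3, the maternally expressed long RNA of the Dlk1-Dio3 cluster at 12:109540996-109571729 (GRCm38.p6), stood at 1.00 and 0.80 over the ES pool on the iPS1 arrays, against -2.51 and -2.65 on the iPS4 arrays. iPS1 was above the pool and iPS4 far below it, a difference of 3.49 ± 0.06 (adjusted p = 6.149e-06) or 11.2-fold, and all 5 Meg3 probes were called in this direction with differences from 0.30 to 3.49. In iPS5 Meg3 stood at 0.43 and 0.13. Dlk1, the paternally expressed Notch-ligand relative of the same cluster, was at -0.34 and -0.38 in iPS1, against -0.87 and -0.87 in iPS4, a difference of 0.51 ± 0.05. Dio3, the thyroid hormone deiodinase at the far end of the cluster, differed by 0.08 and was not called.

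Within the segment from H19 to Phlda2 on chromosome 7, Phlda2 and Cdkn1c had the opposite direction. Phlda2, a maternally expressed gene that limits placental growth, at 7:143501545-143503145, stood at -1.50 and -1.58 in iPS1, against -0.10 and -0.09 in iPS4. Its neighbour Cdkn1c, the maternally expressed cell cycle inhibitor p57, was at -1.43 and -1.21 in iPS1, against -0.12 and -0.05 in iPS4. In both genes iPS4 lay near the ES pool and iPS1 below it, and the differences were -1.44 ± 0.05 and -1.24 ± 0.07. Of the 13 genes measured from H19 to Phlda2 these were the 2 called, beside 12% of all genes. Igf2 (-0.03), H19 (0.13) and Kcnq1 (0.01) were not called. Grb10, an adaptor that restrains growth factor signalling, was at -0.01 and -0.03 in iPS1, against -1.82 and -1.79 in iPS4, and 3 of its 3 probes were called higher in iPS1. Smaller differences in the same direction were found for Sgce (0.60), Igf2r (0.53), Peg3 (0.46), Snrpn (0.44), Asb4 (0.44), Mest (0.34) and Nnat (0.32), while Dcn (-0.45) and Ddc (-0.29) were lower.

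**Figure D2:**
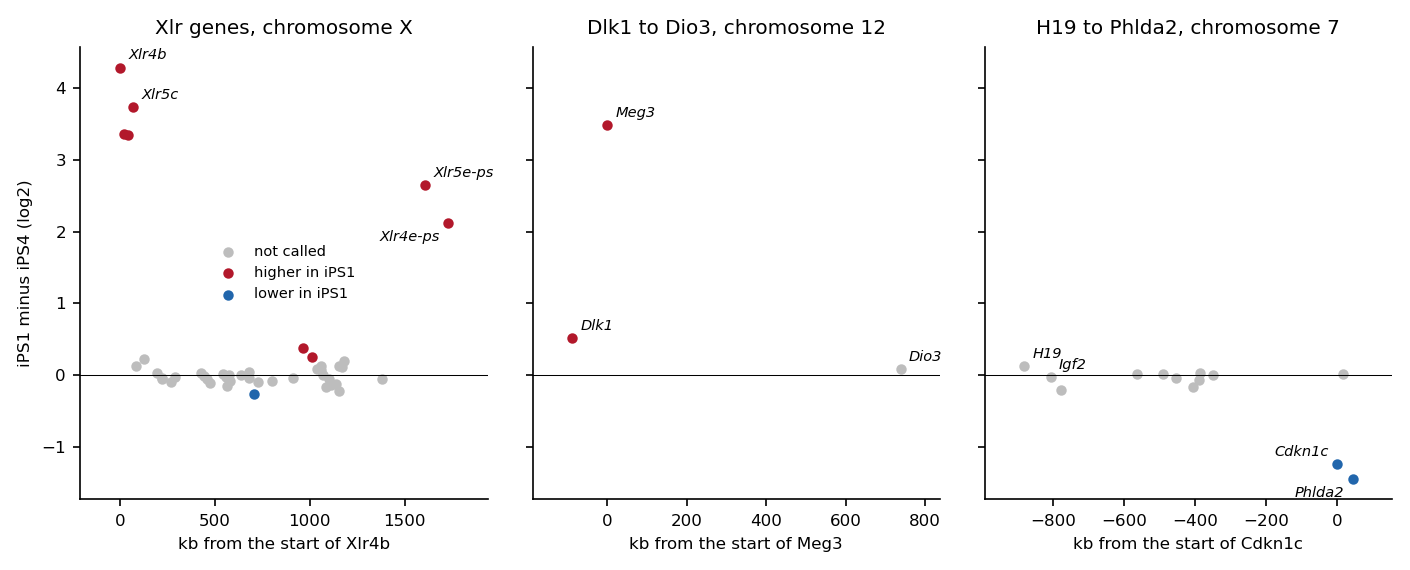
Difference between iPS1 and iPS4 (log2, vertical axis) of the measured genes in 3 chromosome segments, placed by distance in kb from the start of Xlr4b, Meg3 and Cdkn1c, with genes higher in iPS1 in red, lower in blue and not called in grey. The Xlr genes stand at 2.13 to 4.29 at both ends of their segment with the genes between them near 0, Meg3 stands at 3.49 beside Dlk1 at 0.51, and Phlda2 and Cdkn1c stand below -1.

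Genes of the 2-cell-like state, a rare and transient condition of ES cells that resembles the early cleavage embryo, were higher in iPS1 where they differed: 5 of 8 measured were higher, none was lower, and the median was 0.47. Zscan4c, which encodes a zinc-finger protein linked to telomere maintenance, stood at -0.30 and -0.09 in iPS1, against -2.96 and -2.80 in iPS4. Zscan4f was at 0.59 and 0.78 in iPS1, against -2.04 and -1.81 in iPS4, and since the Zscan4 copies are alike the probes may share signal. Usp17la (0.97), Arg2 (0.54, above background on 1 of the 2 iPS4 arrays) and Zfp352 (0.39) were higher too. In iPS5 Zscan4c was at -0.74 and -0.57, nearer to iPS1.

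Of 28 genes of the germ line and meiosis, 16 were higher in iPS1 and 1, Dmrt1 (-0.34), was lower, with a median of 0.33. Dazl, a germ-cell RNA-binding protein, stood at 0.44 and 0.62 in iPS1, against -1.63 and -1.39 in iPS4, a difference of 2.04 ± 0.08 (adjusted p = 7.585e-05). Mael, which takes part in the silencing of transposons, was at -0.56 and -0.22 in iPS1, against -1.83 and -1.47 in iPS4, while its other probe differed by -0.05. The meiotic cohesin subunit Smc1b was higher by 1.08 ± 0.09 and Tex19.1, which restrains retrotransposons, by 0.90 ± 0.05. Stk31, Sycp3, Hormad1, Sycp1 and Stra8 were higher by 0.57 to 0.75. Among 20 genes of retroelement silencing none was called higher and 5 were lower in iPS1, with a median of -0.08. These were Zfp57 (-0.57), which protects imprints, its corepressor Trim28 (-0.42), Zfp809 (-0.28), Tasor (-0.26) and Smchd1 (-0.90), whose 7 probes disagreed, with 1 lower and 2 higher among the 3 called.

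**Figure D3:**
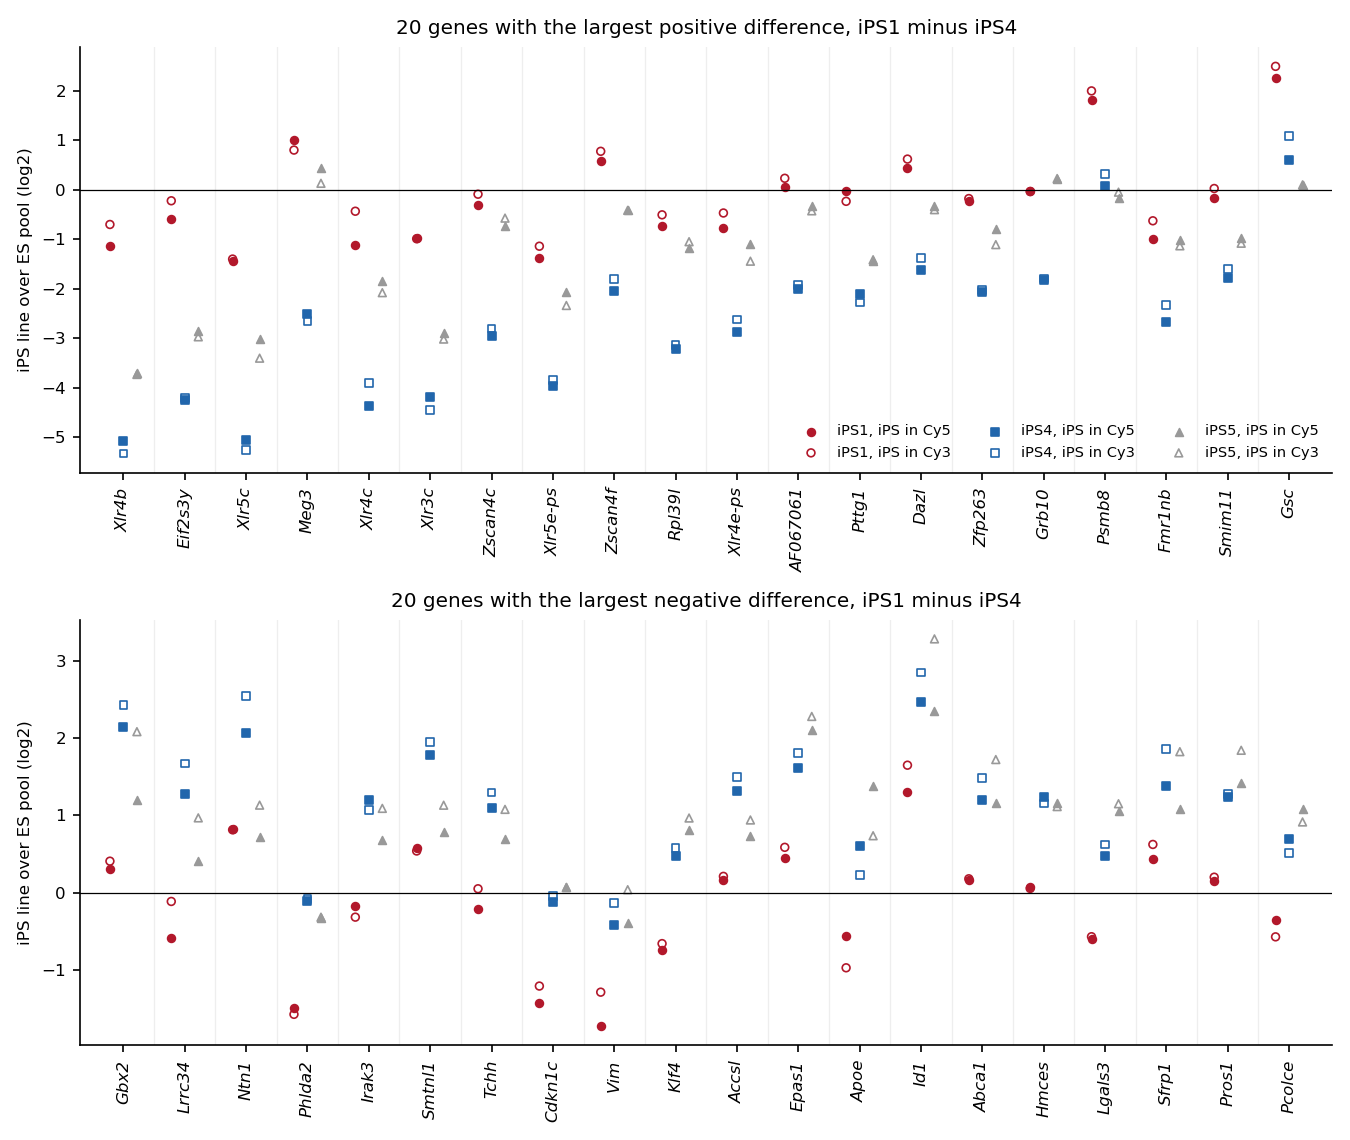
Log2 ratio of each line over the ES pool (vertical axis) for the 20 genes with the largest positive difference (top) and the 20 with the largest negative difference (bottom), with each array as a point, iPS1 as red circles, iPS4 as blue squares, iPS5 as grey triangles, filled for iPS in Cy5 and open for Cy3. The genes were chosen by their difference, and the largest distances between the lines are those of Xlr4b, Eif2s3y, Xlr5c and Meg3.

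The naive pluripotency genes, which hold ES cells in the state of the early epiblast, were more often lower than higher in iPS1. Of 28 measured, 14 were lower and 3 higher in iPS1, with a median difference of -0.28 beside 0.01 for all genes. The 4 transduced reprogramming factors, of which Pou5f1, Sox2 and Klf4 are also in the naive list, were all lower. Klf4 stood at -0.74 and -0.66 over the ES pool in iPS1, against 0.47 and 0.58 in iPS4, a difference of -1.23 ± 0.05 (adjusted p = 0.0001073). Myc was at 0.54 and 0.71 in iPS1 and at 1.36 and 1.54 in iPS4, a difference of -0.82 ± 0.06. Pou5f1 was at -0.47 and -0.55 in iPS1 and at 0.44 and 0.03 in iPS4 (-0.75 ± 0.12), and Sox2 at -0.52 and -0.14 in iPS1 and at 0.00 and 0.16 in iPS4 (-0.41 ± 0.07). The arrays of the lines did not overlap for any of the 4 factors, which also held for 38% of all genes. Whether these probes read the viral as well as the endogenous copies was not tested.

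Among the other naive genes, the nuclear receptor Nr0b1 was at -0.60 and -0.18 in iPS1, against 0.35 and 0.89 in iPS4. Esrrb, a nuclear receptor of the naive network, was at -0.82 and -0.63 in iPS1, against -0.04 and 0.30 in iPS4, while its other probe differed by -0.01. The growth factor Gdf3 was lower in iPS1 by 0.91 on the log2 scale (-0.91 ± 0.06), and Tbx3 (-0.82), Klf5 (-0.64), Nr5a2 (-0.63), Klf2 (-0.56), Utf1 (-0.42) and Tfcp2l1 (-0.41) were lower too. Zfp42, a widely used marker of naive cells, averaged -3.10 in iPS1 and -2.77 in iPS4, far below the ES pool in both lines, with a difference of -0.33 ± 0.05. Nanog did not share this direction: it was at 0.66 and 0.46 in iPS1 and at 0.66 and 0.52 in iPS4, a difference of -0.03 ± 0.06 (adjusted p = 0.8605). Dppa3 (0.32), Fbxo15 (0.35) and Mael (1.26) were the naive genes higher in iPS1. Of the 12 transduced TFIID subunits, 10 were not called, Taf7 was higher by 0.25 ± 0.05 on 1 of its 3 probes and Taf13 was lower (-0.33 ± 0.06). Taf7 stood at 1.09 and 1.43 over the ES pool in iPS1 and at 0.83 and 1.19 in iPS4, the highest of the 12 in both lines.

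Feedback genes of LIF and FGF signalling, the pathways that support and oppose self-renewal, were lower in iPS1 for 7 of 20 and higher for 2. Their median was -0.125. The counts of this paragraph stand beside 4.49% lower and 7.53% higher of all genes. Spry4, an inhibitor of FGF-ERK signalling, was at -0.55 and 0.61 in iPS1, against 0.43 and 1.59 in iPS4. Its arrays overlapped between the lines because the values followed the dye, while both dye-matched pairs gave the same difference (-0.97 and -0.98). Socs2 (-0.85) and Spry2 (-0.71, with 0.12 on its other probe) were lower, and the immediate early gene Fos was higher by 1.26 ± 0.08. Of 16 genes of BMP signalling 5 were lower, Id1 (-1.18), Bmp4 (-0.63), Id4 (-0.38), Smad7 (-0.30) and Id2 (-0.28), and Bambi (0.25) was higher. The other 10 were not called and the list median was -0.0018, so the list as a whole was not shifted. Of 13 genes of Nodal signalling, with a median of -0.0751, Gdf3 (-0.91), Lefty2 (-0.65), Pcsk6 (-0.33), Smad7 (-0.30) and Lefty1 (-0.25) were lower while Skil (0.76) was higher. The probe of the Nodal and BMP antagonist Cer1 was not well above background on either iPS4 array, and iPS1 was at least 1.41-fold higher (adjusted p = 0.0009015), a bound set, on each iPS4 array, against the higher of the probe's own signal and the dimmest signal counted as above background.

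Genes of the primed epiblast and the primitive streak, which follow the naive state in the embryo, had the opposite direction. Of 17 primed genes 8 were higher and 3 lower in iPS1, with a median of 0.29. Fgf5, the growth factor that marks the post-implantation epiblast, stood at 2.56 and 2.85 in iPS1, against 1.32 and 1.67 in iPS4, so both lines were above the ES pool and iPS1 more so, by 1.21 ± 0.06. The homeobox factor Otx2 was at 0.12 and 0.44 in iPS1, against -1.05 and -0.79 in iPS4. Fgf15 (0.67), Pou3f1 (0.57) and the de novo methyltransferase Dnmt3b (0.43) were higher, and Tcf15 (-0.73), Foxd3 (-0.44) and Sfrp2 (-0.30) were lower.

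Of 22 genes of the primitive streak and early mesoderm 10 were higher in iPS1 and none was lower, with a median of 0.25. Gsc, the organiser homeobox gene, stood at 2.26 and 2.50 in iPS1, against 0.60 and 1.09 in iPS4, a difference of 1.54 ± 0.11 (adjusted p = 0.0005316). T, the mesoderm factor Brachyury, was high over the ES pool in both lines, at 3.65 and 3.77 in iPS1 and at 2.87 and 3.27 in iPS4, and the lines differed by 0.64 ± 0.09. Foxa2 (0.86), Mixl1 (0.81), Fgf8 (0.67), Eomes (0.66), Cyp26a1 (0.60), Sp5 (0.52), Mesp1 (0.42) and Wnt3 (0.31) were higher as well. In iPS5, T was at 0.37 and 0.88 and Gsc, not above background on either iPS5 array, at 0.09 and 0.10. Wnt targets, which share T, Sp5 and Cyp26a1 with this list, were higher for 9 of 18 and lower for 1, Notum (-0.27). Axin2, a feedback inhibitor of the pathway, was at 1.81 and 2.55 in iPS1 and at 1.21 and 2.01 in iPS4, a difference of 0.57 ± 0.05.

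**Figure D4:**
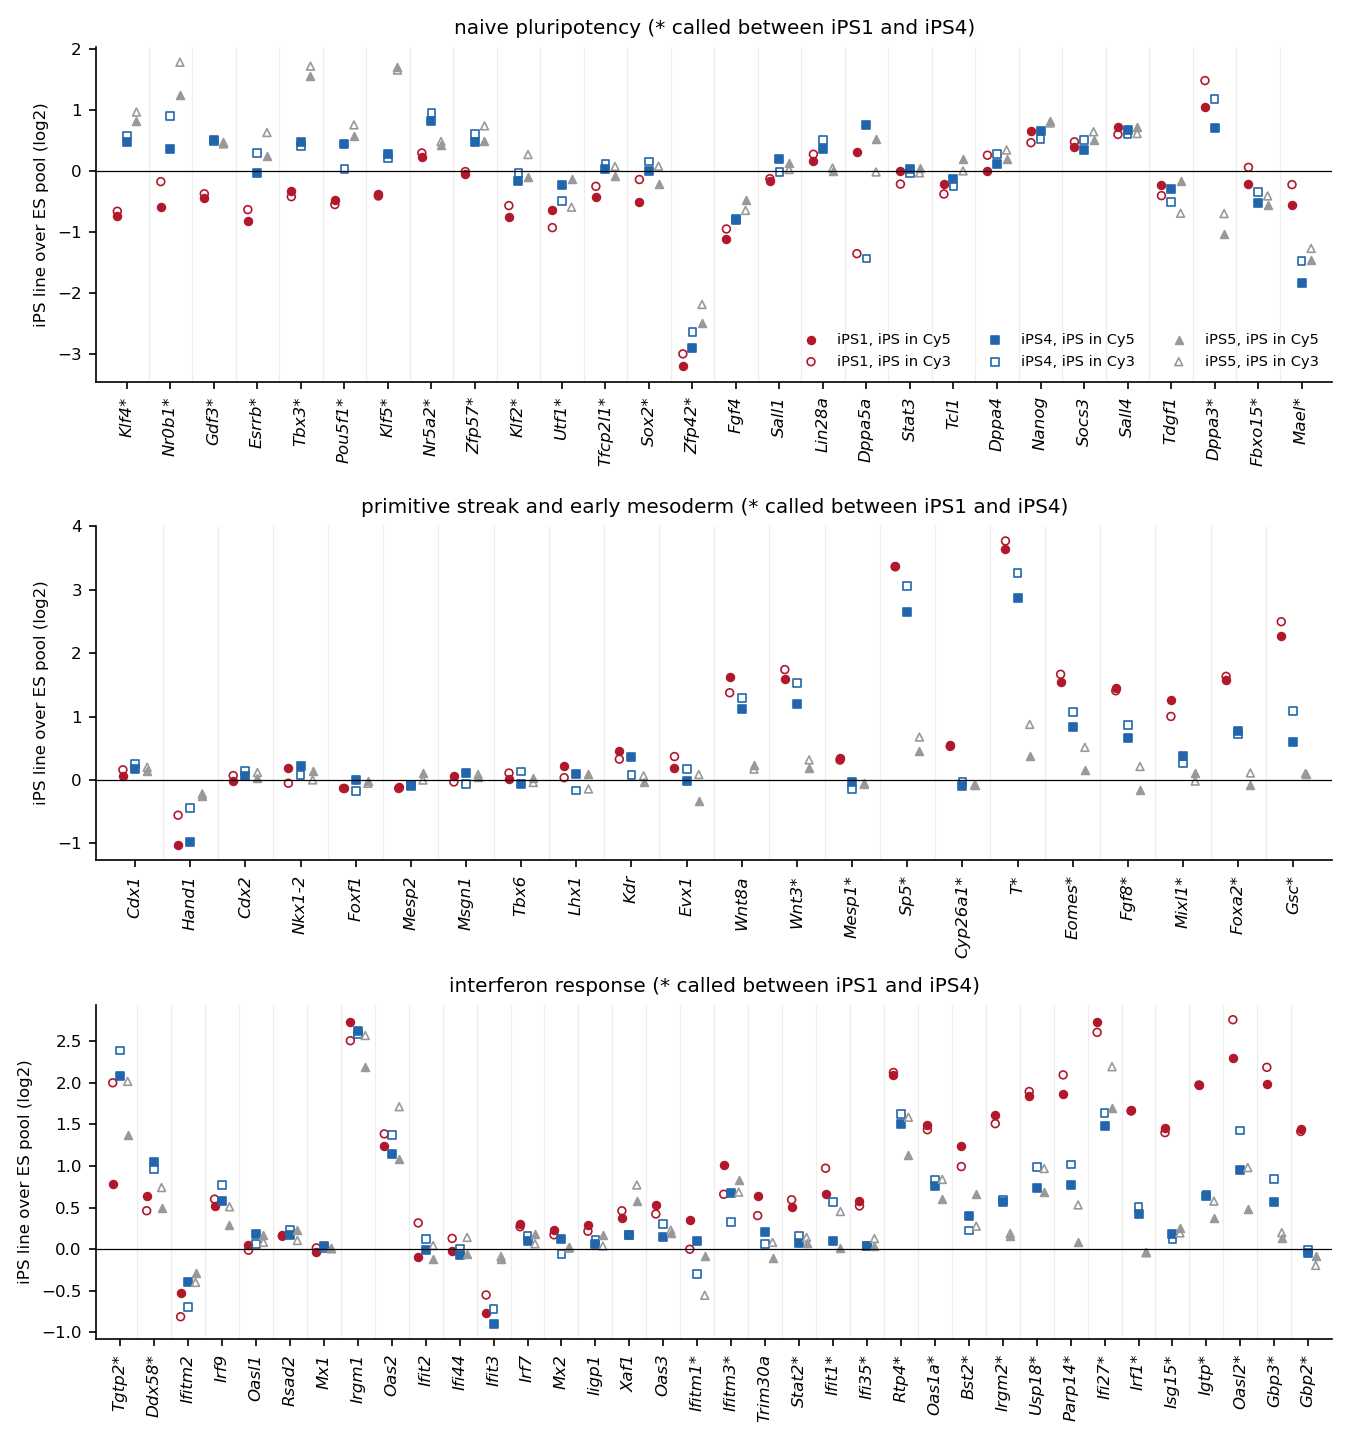
Log2 ratio of each line over the ES pool (vertical axis) for the measured genes of the naive pluripotency, primitive streak and interferon lists, ordered by the difference between iPS1 and iPS4, with an asterisk on called genes and the same symbols for lines and dyes in all 3 panels (red circles iPS1, blue squares iPS4, grey triangles iPS5). Most called naive genes have iPS1 below iPS4, all 10 called streak genes have iPS1 above iPS4, and Gbp2, Gbp3, Oasl2, Igtp, Isg15 and Irf1 have iPS1 more than 1 above iPS4.

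Interferon-response genes, the antiviral programme that interferons switch on through STAT and IRF factors, were higher in iPS1 for 18 of 36 and lower for 2, with a median of 0.31, and 9 of the 18 were over 2-fold higher. Gbp2, an interferon-induced GTPase, stood at 1.44 and 1.42 over the ES pool in iPS1, against -0.05 and -0.01 in iPS4, a difference of 1.46 ± 0.06 (adjusted p = 7.88e-05). Isg15, the ubiquitin-like modifier, was at 1.45 and 1.40 in iPS1, against 0.19 and 0.12 in iPS4. The GTPase Igtp was at 1.98 and 1.97 in iPS1, against 0.64 and 0.66 in iPS4. Irf1, an activator of the programme, was at 1.68 and 1.66 in iPS1 and at 0.42 and 0.51 in iPS4, and Oasl2 was higher by 1.33 ± 0.05 on 1 of its 2 probes (the other differed by 0.07). Gbp3 (1.38), Ifi27 (1.11), Parp14 (1.09), Usp18 (1.01), Irgm2 (0.98) and Bst2 (0.81) were also higher. Not all members differed: Mx1 (-0.03), Rsad2 (-0.04), Ifit2 (0.06) and Irf7 (0.16) were not called, and Tgtp2 (-0.84, on 1 of its 2 probes) and the RNA sensor Ddx58 (-0.45) were lower. In iPS5, Gbp2 was at -0.08 and -0.19, Isg15 at 0.26 and 0.20, and Irf1 at -0.04 and -0.04.

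The classical binding site of interferon-activated factors was looked for in the promoters of these genes, as GAAA, any 2 bases and GAAA again, on both strands and with overlapping matches counted, in the same RefSeq windows. It was present in 10 of the 14 higher members that had a window (71.4%), in 8 of 14 other members of the list (57.1%), and in 476 of the 14652 measured genes with a window (3.25%). Of the higher MHC class I genes, 4 of 12 (33.3%) had it. Among the higher interferon genes with a window, Ifi35, Ifitm1, Irf1 and Oasl2 had no match. Of these, Irf1 (1.20) and Oasl2 (1.33) were over 2-fold higher in iPS1. The windows of Isg15, Gbp2 and Igtp are given because they carry the match in capitals beside large differences. Isg15 lies at 4:156200769-156201068 on the minus strand and has 3 overlapping matches, Gbp2 at 3:142620413-142620712 on the plus strand with 1 match, read on the opposite strand, and Igtp at 11:58199306-58199605 on the plus strand with 1 match (all GRCm38.p6).
Isg15: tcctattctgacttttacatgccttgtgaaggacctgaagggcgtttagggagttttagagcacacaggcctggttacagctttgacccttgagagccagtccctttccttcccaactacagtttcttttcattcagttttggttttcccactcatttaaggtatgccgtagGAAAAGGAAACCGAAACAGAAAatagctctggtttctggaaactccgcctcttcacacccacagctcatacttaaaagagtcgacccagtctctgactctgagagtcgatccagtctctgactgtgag
Gbp2: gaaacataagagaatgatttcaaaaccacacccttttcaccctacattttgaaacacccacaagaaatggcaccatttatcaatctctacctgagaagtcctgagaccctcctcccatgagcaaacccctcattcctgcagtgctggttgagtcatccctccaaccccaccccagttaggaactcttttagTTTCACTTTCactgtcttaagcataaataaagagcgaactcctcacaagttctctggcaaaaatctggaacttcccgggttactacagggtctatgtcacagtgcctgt
Igtp: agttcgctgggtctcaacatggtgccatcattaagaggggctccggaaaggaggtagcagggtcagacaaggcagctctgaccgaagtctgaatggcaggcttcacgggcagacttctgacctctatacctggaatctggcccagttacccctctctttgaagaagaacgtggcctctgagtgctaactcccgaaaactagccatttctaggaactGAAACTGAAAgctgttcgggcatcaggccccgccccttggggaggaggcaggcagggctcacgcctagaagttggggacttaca
A match is a run of letters in these windows and not a site shown to be bound.

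Genes of MHC class I antigen presentation, which shows peptides of the cell's own proteins to T cells, were higher in iPS1 for 13 of 19 and lower for 2, with a median of 0.47. Psmb8, an inducible catalytic subunit of the immunoproteasome, stood at 1.83 and 2.00 in iPS1, against 0.08 and 0.32 in iPS4, a difference of 1.71 ± 0.06 (adjusted p = 3.358e-05). The heavy chain H2-K1 was at 0.29 and 0.27 in iPS1, against -0.82 and -0.73 in iPS4, on opposite sides of the ES pool, and 3 of 3 probes were called. The trimming peptidase Erap1 (0.93), Psmb10 (0.59), the peptide transporters Tap2 (0.55) and Tap1 (0.43), Psme1 (0.54) and Psmb9 (0.50) were higher. B2m, the light chain, was lower (-0.38), as was the chaperone Pdia3 (-0.56). H2 genes are close in sequence, so their probes may share signal.

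Cholesterol synthesis genes were higher in iPS1 for 13 of 19 and lower for none, with a median of 0.30, and every member called was under 2-fold. Fdps, which makes farnesyl diphosphate, stood at -0.34 and -0.10 in iPS1, against -1.12 and -0.91 in iPS4, a difference of 0.79 ± 0.06. Msmo1 (0.61), Dhcr7 (0.57), Fdft1 (0.53), Insig1 (0.49), Hmgcs1 (0.48), Sqle (0.41) and the regulator Srebf2 (0.30) followed. Of 21 glycolysis genes 9 were higher and 2, Eno3 (-0.43) and Hk2 (-0.28), were lower, with a median of 0.29. Pfkp (0.59), Aldoa (0.50) and Ldhb (0.45) were among the higher ones. Pgk1 and Ldha differed by 0.77 ± 0.45 and 0.59 ± 0.60 and were not called. Among 23 hypoxia genes 7 were higher, with Ddit4 (1.05), Bnip3 (0.79) and P4ha2 (0.77, with 0.06 on its other probe) first, and 2 were lower, the hypoxia factor Epas1 (-1.20, on 2 of its 3 probes) and Kdm3a (-0.26). None of 27 genes of oxidative phosphorylation was called by limma, and 7 had an unadjusted p under 0.05. Of 32 genes of S phase and mitosis 6 were higher and none lower, beside 7.53% higher and 4.49% lower of all genes. Securin, Pttg1, stood at -0.01 and -0.23 in iPS1, against -2.11 and -2.28 in iPS4. The survivin gene Birc5 (1.08), Mki67 (0.48), Cenpf (0.46), Bub1 (0.29) and Cenpe (0.25) followed.

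Markers of fibroblasts and feeder cells were lower in iPS1 for 15 of 35 and higher for 2, with a median of -0.26. Vim, the intermediate filament of mesenchymal cells, stood at -1.73 and -1.29 in iPS1, against -0.42 and -0.13 in iPS4, while its other probe differed by 0.01. The chemokine Ccl7 was at -1.44 and -1.33 in iPS1, against -0.47 and -0.42 in iPS4. Ccl2 (-0.92), Timp1 (-0.80), Fstl1 (-0.74, with -0.08 on its other probe), Mmp3 (-0.64), Lum (-0.50) and Dcn (-0.45) were lower. Of the defining markers, Col1a1 (-0.39), Col1a2 (-0.33) and Dcn were lower in iPS1 and Thy1 (0.16) was not called. Col1a1 was called on 1 of its 3 probes, with -0.05 on another. All 4 markers were above background on every array of both lines. Tagln (0.29) and Snai1 (0.41) were higher. The summed normalised intensity of the 35 genes was 10900 and 11150 on the iPS1 arrays, against 14930 and 15010 on the iPS4 arrays, and 17790 and 16870 on those of iPS5. The sum is of intensities that are not logged, so bright genes weigh most in it. Vim, whose probes disagreed, was at log2 levels of 10.46 and 10.56 in iPS1, against 11.68 and 11.77 in iPS4. The sum is therefore not a measure of the list as a whole. These cells grew on feeders, and the lower fibroblast values of iPS1 stand beside its lower values of some annexin, matrix and naive pluripotency genes. Their part in those results was not tested.

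Of 17 annexin and S100 genes 8 were lower and none higher, led by S100a6 (-0.89), S100a13 (-0.82) and Anxa1 (-0.64). Of 31 genes of collagens, laminins and integrins 7 were lower, 5 of them also in the fibroblast list, and Lamb1 (0.31) was higher. The other 23 were not called and the list median was -0.0639. Over all genes 4.49% were lower and 7.53% higher. Lama1, a basement-membrane laminin, was at -0.92 and -0.72 in iPS1, against 0.05 and 0.30 in iPS4, while its other probe differed by -0.06.

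Markers of other lineages were mixed, and their counts stand beside the 12% of all genes that were called. Of 17 genes of trophectoderm and simple epithelium 5 were higher, namely the keratins Krt18 (0.96), Krt8 (0.72) and Krt19 (0.46) with Eomes (0.66) and Tfap2c (0.35), while the trophectoderm factor Cdx2 (-0.08) and Elf5 (0.14) were not called. Of 25 primitive endoderm genes 6 were higher, among them Srgn (0.98), Lrp2 (0.83), Cubn (0.73) and Gata6 (0.52, above background on 1 of the 2 iPS4 arrays), and Apoe (-1.18) and Lama1 (-0.99) were lower, while Gata4 (-0.03) and Sox17 (0.08) were not called. Srgn was at -1.55 and -1.40 in iPS1 and at -2.45 and -2.46 in iPS4, with both lines below the ES pool, whereas iPS5 was above it at 0.79 and 1.02. Of 20 neural genes, Nefm (0.57) was higher and Gbx2 and Neurod1 (-0.59) were lower. Gbx2, a homeobox gene of the midbrain-hindbrain boundary that is also active in naive ES cells, was the lowest of all genes, at 0.31 and 0.41 in iPS1, against 2.14 and 2.43 in iPS4, a difference of -1.93 ± 0.17. In iPS5 it was at 1.19 and 2.08. Of 19 endothelial and blood genes Etv2 (0.52) was called. No Hox gene of 33 measured was called by limma, 7 had an unadjusted p under 0.05, and their differences ran from -0.22 to 0.22.

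The share called over all genes, 12%, stands beside the counts of the remaining lists. Of 14 DNA methylation genes Uhrf2 (0.53), Mbd1 (0.53) and Dnmt3b (0.43) were higher and Tet2 (-0.42), an enzyme that oxidises methylcytosine, was lower. Of 23 polycomb and histone demethylase genes Eed (-0.53), Kdm2b (-0.48), Kdm3a (-0.26) and Arid1a (-0.23) were lower and Bmi1 (0.24) was higher. Hspb1 (-0.82), Hspb8 (-0.29) and Hsph1 (-0.27) were lower and Hspa1a (0.79) and Bag3 (0.54) higher among 21 heat shock genes. Of 25 genes of the ATF4 response Vldlr (0.85) was higher and Cth (-0.66), Trib3 (-0.30) and Sesn2 (-0.28) were lower, and of 21 p53 targets and cell cycle inhibitors 3 were higher and 4 lower. In the Rhox homeobox cluster on the X chromosome, Rhox6 (0.60) and Rhox13 (0.43) of 4 measured were higher.

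**Figure D5:**
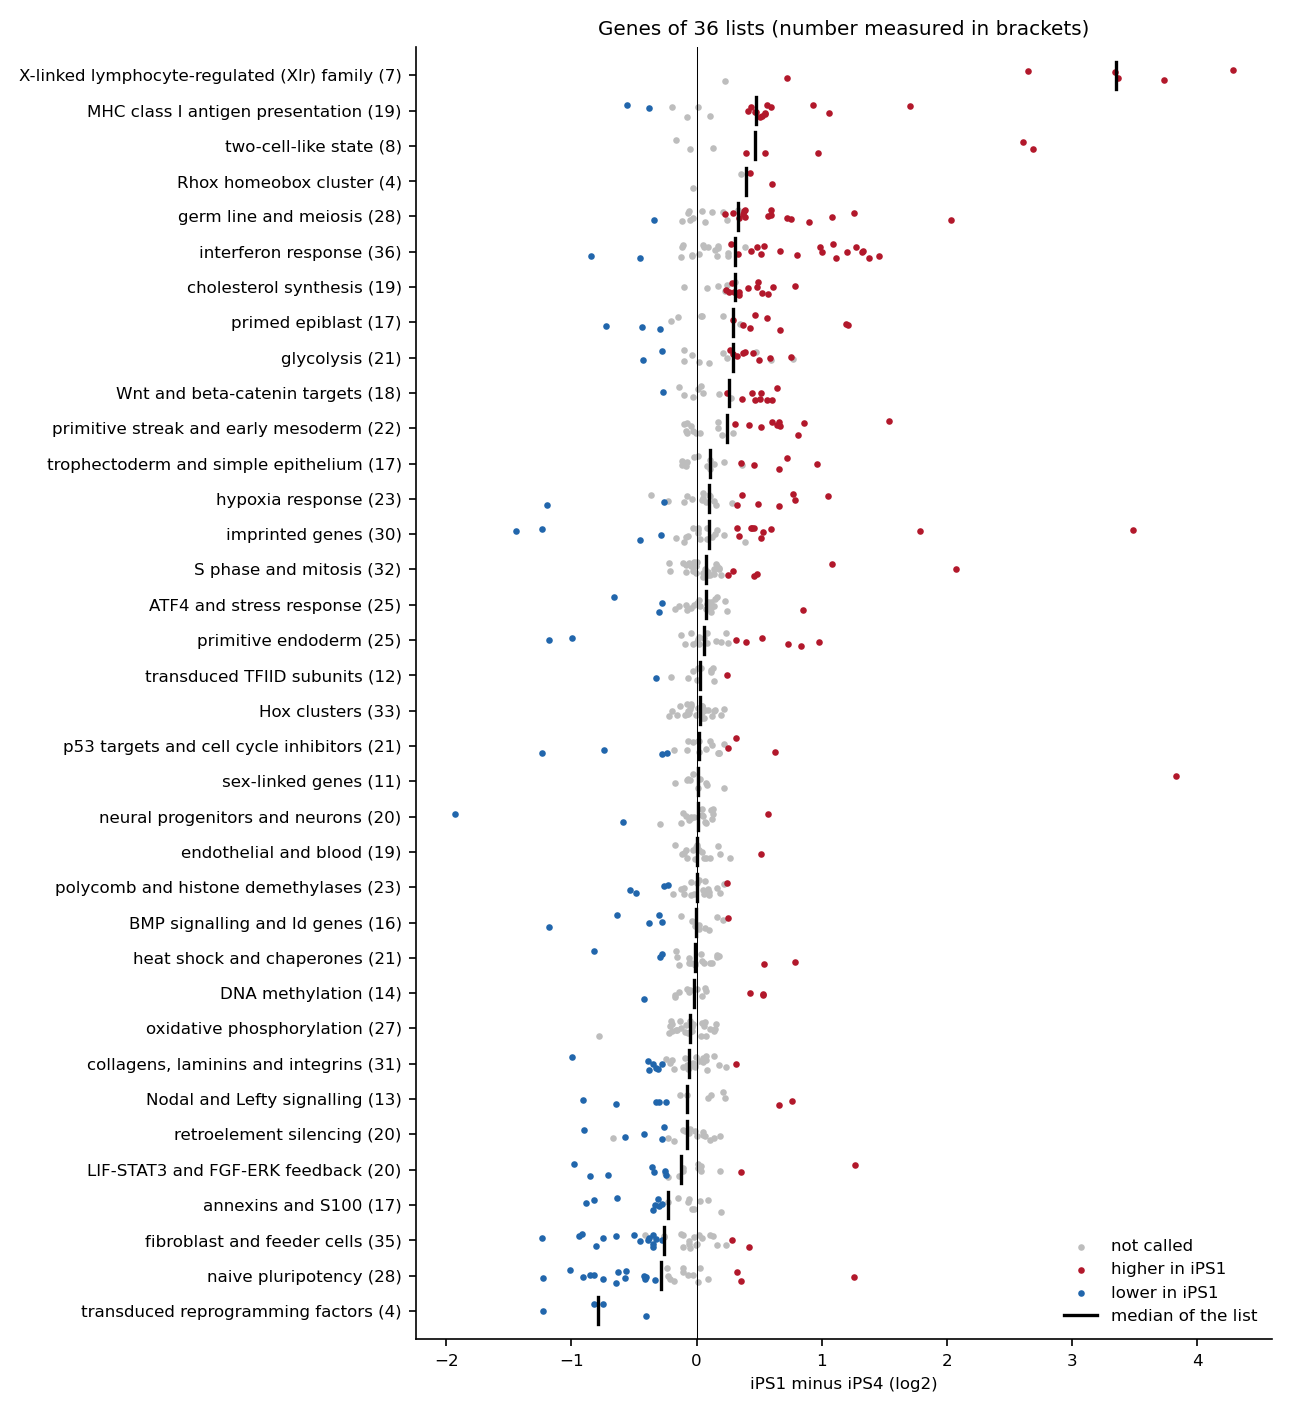
Difference between iPS1 and iPS4 (log2, horizontal axis) of every measured gene in 36 lists, ordered by the list's median (black bar), with genes called higher in iPS1 in red, lower in blue and not called in grey. The Xlr list has the highest median (3.35), followed by MHC class I (0.47) and the 2-cell-like state (0.47), and the transduced reprogramming factors have the lowest (-0.79).

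Among the lowest genes outside the lists, Lrrc34 was at -0.59 and -0.11 over the ES pool in iPS1, against 1.28 and 1.67 in iPS4, and Ntn1, the axon guidance protein netrin, was at 0.83 and 0.81 in iPS1, against 2.06 and 2.54 in iPS4. Irak3 (-1.38), an inhibitor of Toll-like receptor signalling, was lower on all 3 of its probes. Abca1 (-1.17), a cholesterol exporter, Lgals3 (-1.13), the lectin galectin, Sfrp1 (-1.09), a secreted Wnt antagonist, and Pros1 (-1.09), an anticoagulant protein, were further ones. Among the highest outside the lists were Rpl39l (2.55), a testis-enriched copy of a ribosomal protein, Zfp263 (1.84) and the X-linked Fmr1nb (1.69). The share of genes called was 14.9% on the X chromosome and 16.1% on chromosome 12, against 10.1% to 14.4% on the other autosomes. On the X chromosome 81 of 653 genes were higher and 16 lower, and 13 were over 2-fold higher. On chromosome 12, 67 of 559 were higher and 23 lower. The median difference was 0.0281 on the X chromosome and 0.0341 on chromosome 12, the highest of all chromosomes, against -0.00838 to 0.0135 on the others, and these values were not tested. Among genes above background the medians were 0.0441 and 0.0387, against -0.00921 to 0.0263 on the others.

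Set beside the ES pool, which both lines share, the largest differences came more often with iPS4 away from the pool. For the 59 genes over 2-fold higher in iPS1 the median ratio over the pool was 0.19 in iPS1, against -1.23 in iPS4, and iPS4 was the further of the lines from the pool in 38. For the 26 genes over 2-fold lower in iPS1 the medians were -0.05 in iPS1, against 1.16 in iPS4, and iPS4 was the further in 19. In iPS5, which lay outside the comparison, 33 of the 59 and 22 of the 26 were nearer to iPS4 than to iPS1. These counts describe genes that were chosen by the difference itself, and no test was made of them. Fewer probes were above background on the iPS5 arrays, and what this did to the iPS5 counts was not tested.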

How the data were processed

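RNA of each iPS line and of the ES cells was amplified, labelled through aminoallyl-UTP and hybridised to 2-colour arrays of 45220 spots, per the labels' protocols. The authors deposited scanner intensity and local background per spot and channel. Their deposited log2 ratios, whose normalisation is not given in the sources used here, served as an alternative, and their mean over all lines was not used. Background was corrected by normexp (offset 50), followed by loess within each array with weight 0 for 4046 control spots (R 4.3.3, limma 3.58.1). A coefficient per line and a dye term were fitted to all 6 arrays, and iPS1 minus iPS4 was tested with limma's two-sided moderated test and Benjamini-Hochberg adjustment over 41174 probes (threshold 0.05). Normalised levels are log2 intensities after quantile normalisation of the average intensity. A probe was above background if its signal exceeded the 95th percentile of 604 dim control spots. Symbols were current for 30365 probes, synonyms for 3726, unmatched for 95 and missing for 6988. Genes to name were the 20 highest and 20 lowest called genes, passing over predicted transcripts, up to 4 members of each list with the smallest p, the 16 transduced genes, Nanog, Zfp42, Esrrb, Xist and Y-linked genes. Other genes named were chosen after their values were seen. The members and lists were chosen with earlier results of these data known. The fit was tested on simulated data. Alternatives changed the background correction, normalisation, dye term, filter, probe rule and arrays used.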

Additional observations from a re-analysis of the deposited data

Results flagged for a closer look

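In 11 named genes the lines lay on opposite sides of the ES pool, each called against it, and differed from each other beyond 2-fold in the same limma fit. The lines share the pool, so their 2 ratios are not independent, and the difference between lines is free of it. With iPS1 above and iPS4 below the pool, the difference (log2, iPS1 minus iPS4) was 3.488 for Meg3, 2.608 for Zscan4f, 2.037 for Dazl, 1.195 for Otx2 and 1.056 for H2-K1. With iPS1 below and iPS4 above it, the difference was -1.825 for Lrrc34, -1.228 for Klf4, -1.182 for the lipid carrier Apoe, -1.131 for Lgals3, -1.066 for the collagen-processing cofactor Pcolce and -1.01 for Nr0b1. Over all 18295 genes, 279 were called on opposite sides, 161 with iPS1 above and 118 with iPS1 below the pool.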

How the results depend on the processing

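The number of calls depended strongly on the processing, while directions did so little: all 140 named genes that were called kept their sign under every alternative run, except Smchd1, whose difference was 0.01666 when all probes of a gene were averaged. Normexp with offset 0 gave 0 probes, 0 genes, 0 genes beyond 2-fold and 0 list genes, against 3743, 2199, 85 and 250 as reported, with 5358 probes at an unadjusted limma p under 0.05. With that offset and an intensity trend, chosen after seeing the data, 2966 probes and 164 genes beyond 2-fold were called. Plain background subtraction gave 32 probes, 21 genes, 21 beyond 2-fold and 9 list genes. Median centring gave 265 probes, 159 genes and 49 list genes, and scaling the arrays gave 2094 probes and 1239 genes. Leaving out the dye term gave 584 probes, 355 genes and 90 list genes, and fitting only the 4 arrays gave 7739 probes and 4236 genes. A test against 1.5-fold gave 105 probes, 68 genes and 36 list genes. Leaving out 1 array at a time, where the lone array is assumed to vary like the others, gave 641 to 1168 probes, 375 to 668 genes and 105 to 145 list genes. The share of called genes that were higher in iPS1 was 62.6%, against 90.5% under subtraction and 74.8% under median centring. The cause of these changes was not tested. The dye term pairs the arrays of the lines by dye, so the fit without it is the unpaired one; replicate numbers were given in accession order and paired nothing.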
